A study of Rattus norvegicus with 18 samples.

Results

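The Rab GTPases are the small G proteins that give vesicles and organelles their identity and steer where they dock. Their genes were described here in rat cortical collecting ducts after lipopolysaccharide (LPS), the outer membrane component of Gram-negative bacteria that is used to model endotoxaemia. Members were chosen by name alone: every row of the deposited table whose symbol is Rab followed by a number and at most a letter and a further digit, which leaves out Rab-interacting proteins. This gave 57 genes of 32883 in the table, and all 57 are accounted for below.

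The LPS group held cortical collecting ducts of male Sprague-Dawley rats dissected 3 h after intraperitoneal LPS, and the Vehicle group held ducts of male Sprague-Dawley rats dissected 3 h after intraperitoneal normal saline. The cortical collecting duct is the kidney segment in which principal cells reabsorb water and sodium and intercalated cells handle acid and base. Each group had 3 numbered samples with 3 libraries each, 18 libraries in all, made from polyA RNA by cDNA amplification for small samples. The LPS dose and the number of tubules pooled are not known here, and the labels do not say that the numbered samples were separate animals, so p-values measure only the spread between these samples.

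A Rab protein cycles between a GDP-bound form held in the cytosol by a GDP dissociation inhibitor (GDI) and a GTP-bound form on a membrane. Guanine nucleotide exchange factors (GEFs) switch it on, GTPase-activating proteins (GAPs) switch it off, and a prenyl anchor added by geranylgeranyl transferase holds it in the membrane. The active form recruits effectors such as tethers and motors, and SNARE proteins then fuse the vesicle with its target. In principal cells vasopressin moves vesicles that carry the water channel aquaporin-2 to the apical membrane, and Rab11 is among the Rab proteins known from the compartments that store and recycle it.

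The promoter windows below belong to 4 of the members whose difference between LPS and Vehicle kept its call under every scaling tried. They are Rab17 and Rab19 among the higher ones and Rab3a and Rab40b among the lower ones. Rab15, Rab32 and Rab40c kept their calls too and have windows that are not shown, and Rab33a kept its call but had no window. Each is a RefSeq window on GRCr8 of 300 bases, 250 before the annotated start and 50 from it, written 5′ to 3′ on the gene's strand. Rab17 lies at chr9:99013983-99014282 on the minus strand, Rab19 at chr4:69123712-69124011 on the plus strand, Rab3a at chr16:18722224-18722523 on the minus strand and Rab40b at chr10:107157326-107157625 on the minus strand. Capitals mark exact matches, on either strand, to any of the searched motifs.
Rab17: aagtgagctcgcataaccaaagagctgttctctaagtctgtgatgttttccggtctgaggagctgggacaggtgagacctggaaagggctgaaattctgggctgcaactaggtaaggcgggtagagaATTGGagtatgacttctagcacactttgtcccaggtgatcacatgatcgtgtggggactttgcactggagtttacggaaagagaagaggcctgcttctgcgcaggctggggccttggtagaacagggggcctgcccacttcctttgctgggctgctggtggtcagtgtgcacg
Rab19: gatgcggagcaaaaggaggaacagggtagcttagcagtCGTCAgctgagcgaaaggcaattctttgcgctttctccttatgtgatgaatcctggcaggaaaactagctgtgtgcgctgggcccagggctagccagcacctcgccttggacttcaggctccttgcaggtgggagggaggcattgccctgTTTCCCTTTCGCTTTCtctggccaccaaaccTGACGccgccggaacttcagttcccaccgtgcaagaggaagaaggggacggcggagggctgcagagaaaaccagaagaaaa
Rab3a: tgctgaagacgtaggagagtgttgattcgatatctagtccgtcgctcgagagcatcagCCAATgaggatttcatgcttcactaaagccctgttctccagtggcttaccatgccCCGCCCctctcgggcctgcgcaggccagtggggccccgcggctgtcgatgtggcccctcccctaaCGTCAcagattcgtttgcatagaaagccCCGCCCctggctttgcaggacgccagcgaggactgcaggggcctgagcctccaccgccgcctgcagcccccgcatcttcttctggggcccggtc
Rab40b: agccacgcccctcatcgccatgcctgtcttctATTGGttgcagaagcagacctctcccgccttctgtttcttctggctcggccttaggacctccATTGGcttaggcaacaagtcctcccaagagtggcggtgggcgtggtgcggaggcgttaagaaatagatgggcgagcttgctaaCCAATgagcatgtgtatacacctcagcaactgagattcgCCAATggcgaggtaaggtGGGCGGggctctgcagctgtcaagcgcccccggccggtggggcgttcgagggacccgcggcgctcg

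The motifs searched were an NF-kappaB site (GGGA, any base, then TTTCC), an interferon-stimulated response element (TTTC repeated after a gap of any 2 bases), a GAS element (TTCNNNGAA), an E-box (CACGTG), a cAMP response element (TGACGTCA) and its core (TGACG), which the whole element also contains, a GC box (GGGCGG), the TATA box (TATAAA), an AP-1 site (TGANTCA) and the box spelled CCAAT. Of the members with a window, Rab19 alone held the interferon-stimulated response element, in 2 overlapping copies whose first bases lie at -62 and -56 from the annotated start. That motif was found in 2.08% of member windows and in 3.92% of all 33469 windows of the table. The Rab3a window held GC boxes at -137 and -44, a CCAAT box at -192 and a core of the cAMP element at -72. The Rab40b window held 4 CCAAT boxes and a GC box at -16, and the Rab17 window held a CCAAT box at -123 and none of the other motifs.

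Windows were found for 47 members (48 windows, since Rab30 has 2), including 13 of the 14 members called different between LPS and Vehicle. GC boxes were present in 77.1% of member windows and in 33.1% of all windows, and TATA boxes in 0% and 14.2%. The median GC content was 63% in member windows and 51.7% in all windows. GC boxes occurred in 8 of 8 windows of members called lower and in 2 of 5 windows of members called higher. Among the 8, the Rab14 window, with a GC box at -70, had the lowest GC content of all member windows (32.3%). Whether its annotated start marks a promoter was not tested. The NF-kappaB motif was in 0% of member windows against 0.362% of all windows, the CCAAT box in 37.5% of both, and the core of the cAMP element in 33.3% against 21.2%. The GAS element (4.17% of member windows against 8.87% of all), the E-box (8.33% against 6.42%), the AP-1 site (8.33% against 7.33%) and the whole cAMP element (2.08% against 1.83%) made up the rest. A match of letters is not a binding site, and no expression value below was used in the search.

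Expression was read as TPM, an abundance corrected for transcript length, so levels can be ordered between genes. The deposited TPM values keep no read numbers, so the depth of each library is unknown. Between 11399 and 12704 genes reached 1 TPM in a library, and a library's mean correlation with the 2 other libraries of its sample lay between 0.953 and 0.977. The 3 libraries least like the rest of their sample were all Vehicle libraries, the first of Vehicle 1 and the first and second of Vehicle 3. Markers fitted the labelled segment, with all 8 principal cell markers and all 9 intercalated cell markers tested. The principal cell markers summed to between 9124 and 12670 TPM in LPS samples and between 15410 and 17060 TPM in Vehicle samples, and 5 of the 8 fell. The intercalated cell markers summed to between 4366 and 6278 TPM in LPS samples and between 6687 and 7360 TPM in Vehicle samples, and 3 of the 9 fell. Among lists of other cells, macrophage and monocyte markers summed to between 226.5 and 474.4 TPM in LPS samples and between 133.2 and 276.5 TPM in Vehicle samples, with 5 of 12 tested higher and 1 lower. Neutrophil markers summed to between 2.11 and 78.2 TPM in LPS samples and between 0.0933 and 0.39 TPM in Vehicle samples, with 2 of 2 tested higher. Endothelial markers summed to between 35.1 and 91.8 TPM in LPS samples and between 20.8 and 99.9 TPM in Vehicle samples, with 2 of 8 tested higher and 1 lower. Distal convoluted and connecting tubule markers, of which 3 of 5 tested fell, summed to between 55.6 and 327.6 TPM in LPS samples and between 135.3 and 5338 TPM in Vehicle samples, with Calb1 at 4943 TPM in Vehicle 1 and Pvalb listed at 0 throughout. No tested marker of proximal tubule (2), thick ascending limb (5), red cells (4), lymphocytes (1) or fibroblasts (1) was called. Some of these sums were nonetheless uneven between samples. Red cell markers summed to between 27.5 and 2272 TPM in LPS samples and between 130.2 and 1009 TPM in Vehicle samples. Thick ascending limb markers summed to between 93.6 and 237.3 TPM in LPS samples and between 111 and 153 TPM in Vehicle samples. When each library was scaled by its median ratio, none of the principal cell, intercalated cell, neutrophil or distal tubule markers was called by limma (2 of each list at an unadjusted p under 0.05). By that scaling 4 of the macrophage and monocyte markers and 2 of the endothelial markers were higher. After quantile normalization, in contrast, 4 of the 8 principal cell markers (median -0.725) and 2 of the 9 intercalated cell markers (median -0.495) were still called lower. The falls of these markers therefore depend on the scaling used. The part of these shifts in the Rab values was not tested, and in bulk tissue fewer cells of a type and less RNA per cell cannot be told apart.

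The collecting duct carried RNA for nearly the whole family, and its summed level overlapped between LPS and Vehicle. The 57 genes summed to 4899, 4850 and 4751 TPM in the 3 LPS samples (4833 ± 75.5, SD, n = 3) and to 4892, 4939 and 4890 TPM in the 3 Vehicle samples (4907 ± 27.8). These sums overlap between the groups. In Vehicle 17 members averaged 100 TPM or more, 22 lay between 10 and 100 TPM, 12 between 1 and 10 TPM and 6 below 1 TPM. Levels in the 50 tested members kept nearly the same order in both groups, with a Spearman correlation of 0.954 across genes, which share libraries and are not replicates. The 8 members that were most abundant in Vehicle made up 59.2% of the family's TPM in LPS and 55.1% in Vehicle.

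Those 8 members serve the main routes of the cell. Rab1a, which moves cargo out of the endoplasmic reticulum, averaged 555.4 ± 45.5 TPM in LPS and 549.5 ± 53.4 TPM in Vehicle (SD, n = 3 each, as for all means here). Rab20, a protein of endosomes and phagosomes, averaged 441 ± 19.0 TPM in LPS and 532.9 ± 53.3 TPM in Vehicle. In Vehicle the means of Rab1a and Rab20 lay within 1 SD of each other, followed by Rab2a of the Golgi at 371.5 ± 18.8 TPM. Next in Vehicle came Rab11b at 290.6 ± 16.1 TPM and the late endosome gene Rab7a at 284.6 ± 7.67 TPM, which again lay within 1 SD of each other. Rab11a at 234.5 ± 12.7 TPM, Rab18 of the endoplasmic reticulum and lipid droplets at 229.7 ± 10.4 TPM and Rab17 at 208.6 ± 32.2 TPM closed the group, without gaps beyond their spread. In LPS the same order held except that Rab11b stood above Rab2a and that Rab17 was 3rd, against 8th in Vehicle. At the other end Rab3a was 49th in LPS and 30th in Vehicle.

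**Figure D1:**
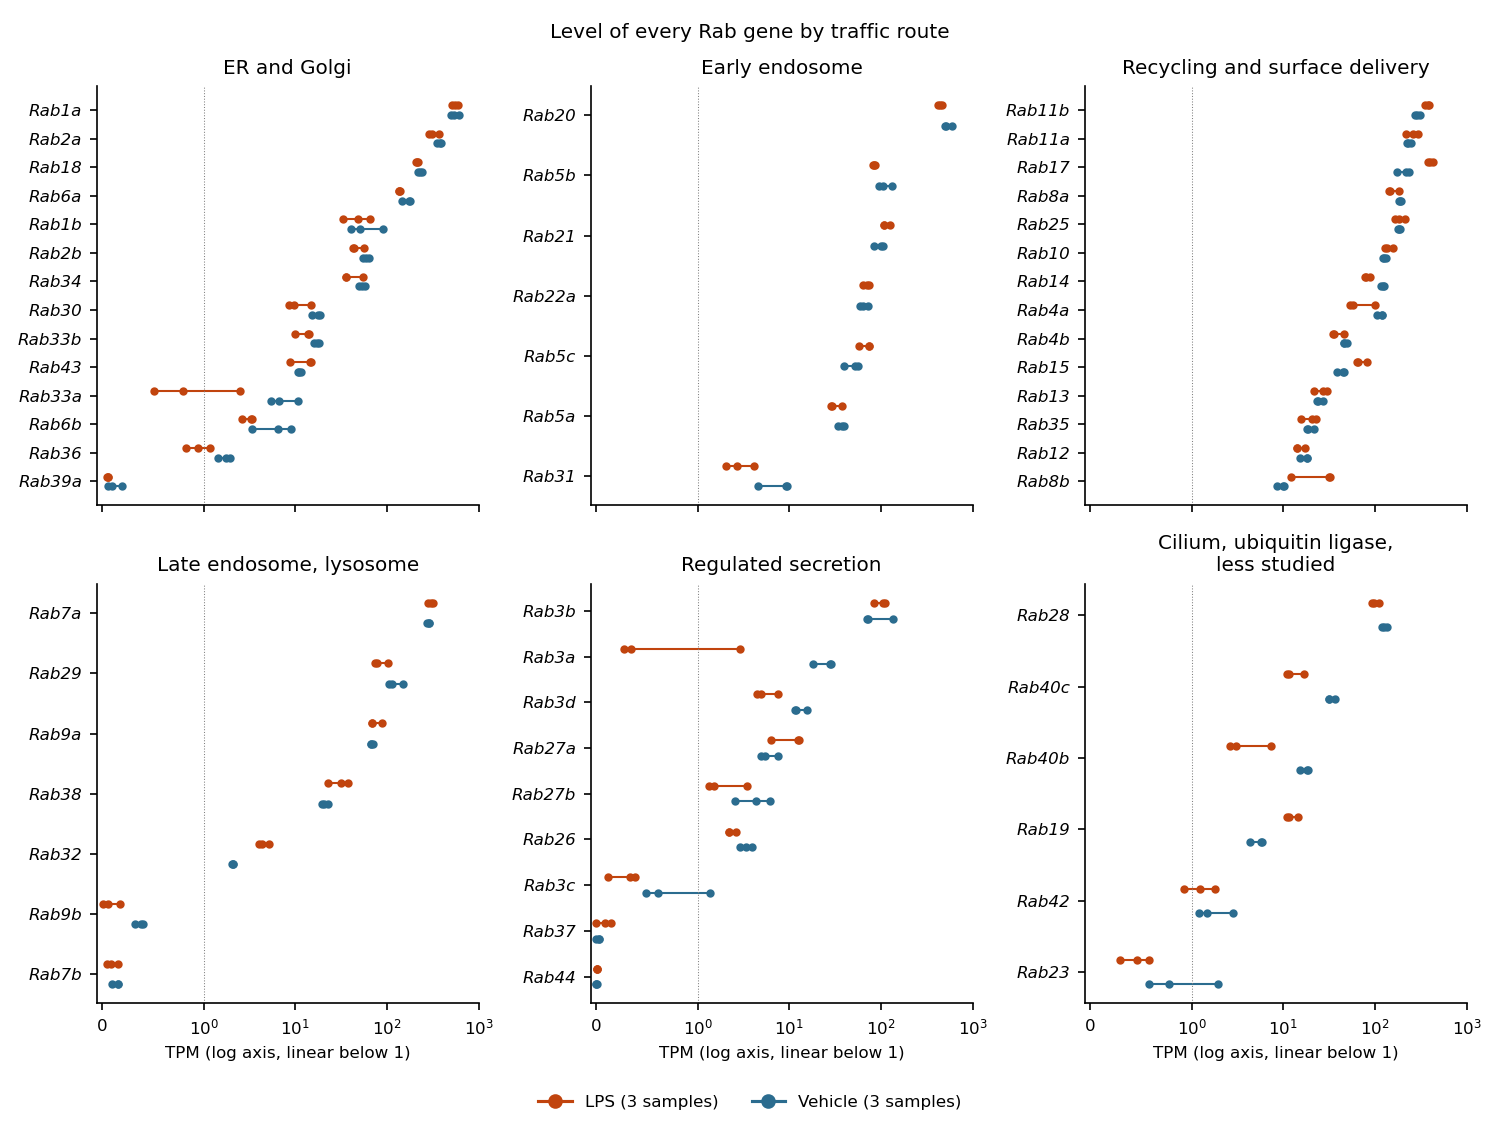
Level of each of the 57 Rab genes in the 3 LPS samples (orange) and the 3 Vehicle samples (blue), in TPM on an axis that is logarithmic above 1 and linear below, with a line from the lowest to the highest sample and genes grouped by the traffic route they are best known for. Rab1a, at 555.4 TPM in LPS and 549.5 TPM in Vehicle, is the most abundant in both groups, and Rab3a is the gene whose groups lie farthest apart.

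With 7 genes below the filter of a mean of 1 TPM over all libraries (Rab3c, Rab7b, Rab9b, Rab23, Rab37, Rab39a and Rab44, none above 1.10 TPM in a group's mean), 50 members were tested. By limma on log2(TPM + 1), fitted over all 12393 tested genes with the sample number as a block and called at a Benjamini-Hochberg adjusted p under 0.05, 14 members differed, 5 higher and 9 lower with LPS, and 36 were not called. That is 28% of members, against 29.4% of all tested genes called in either direction. Of members 10% were higher, against 7.17% of all tested genes, and 18% were lower, against 22.2%. The 3 LPS samples lay entirely above the 3 Vehicle samples for 9 tested members and entirely below for 19, together 56%, against 56.9% of all tested genes. These shares are near the background, so the counts say nothing particular to the family; the results are the individual genes.

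The scale of the table matters for the smaller falls. The median log2 change was -0.23 over the tested members and -0.38 over all tested genes. When each library was scaled by its median ratio, the median of all genes moved to -0.02 and that of members to 0.17. Then 5 members were called higher, against 6.69% of all genes, and 4 lower, against 3.73%. Quantile normalization also gave 5 higher and 4 lower members, against 6.43% and 4.5% of all genes. TMM scaling, by the trimmed mean of M values, gave 6 and 4 members, against 6.75% and 3.92% of all genes. Rab3a, Rab33a, Rab40b and Rab40c fell and Rab15, Rab17, Rab19 and Rab32 rose under each scaling, whereas Rab3d, Rab4a, Rab14, Rab29 and Rab31, called lower on TPM as deposited, were not called under any of the 3 scalings.

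The calls also rest on few samples. Without the 3 Vehicle libraries named above, a check added after the data were seen, Rab3a alone of the 14 kept its call (adjusted p = 0.0353), while the other 13 kept their direction with adjusted p from 0.0522 to 0.0822. Without replicate 3 no member was called by limma, with 4 higher and 6 lower at an unadjusted p under 0.05, and without replicate 2 the counts were 1 and 3. These losses were general. Of all 12393 tested genes, 228 were higher and 72 lower without the 3 Vehicle libraries, and 419 and 296 without replicate 2. Without replicate 3 the counts of all genes were 0 and 0, with 738 and 1463 at an unadjusted p under 0.05. LPS 1 was the LPS sample nearest to the Vehicle mean for 12 of the 14 called members, as it was for 3151 of the 3646 called genes.

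**Figure D2:**
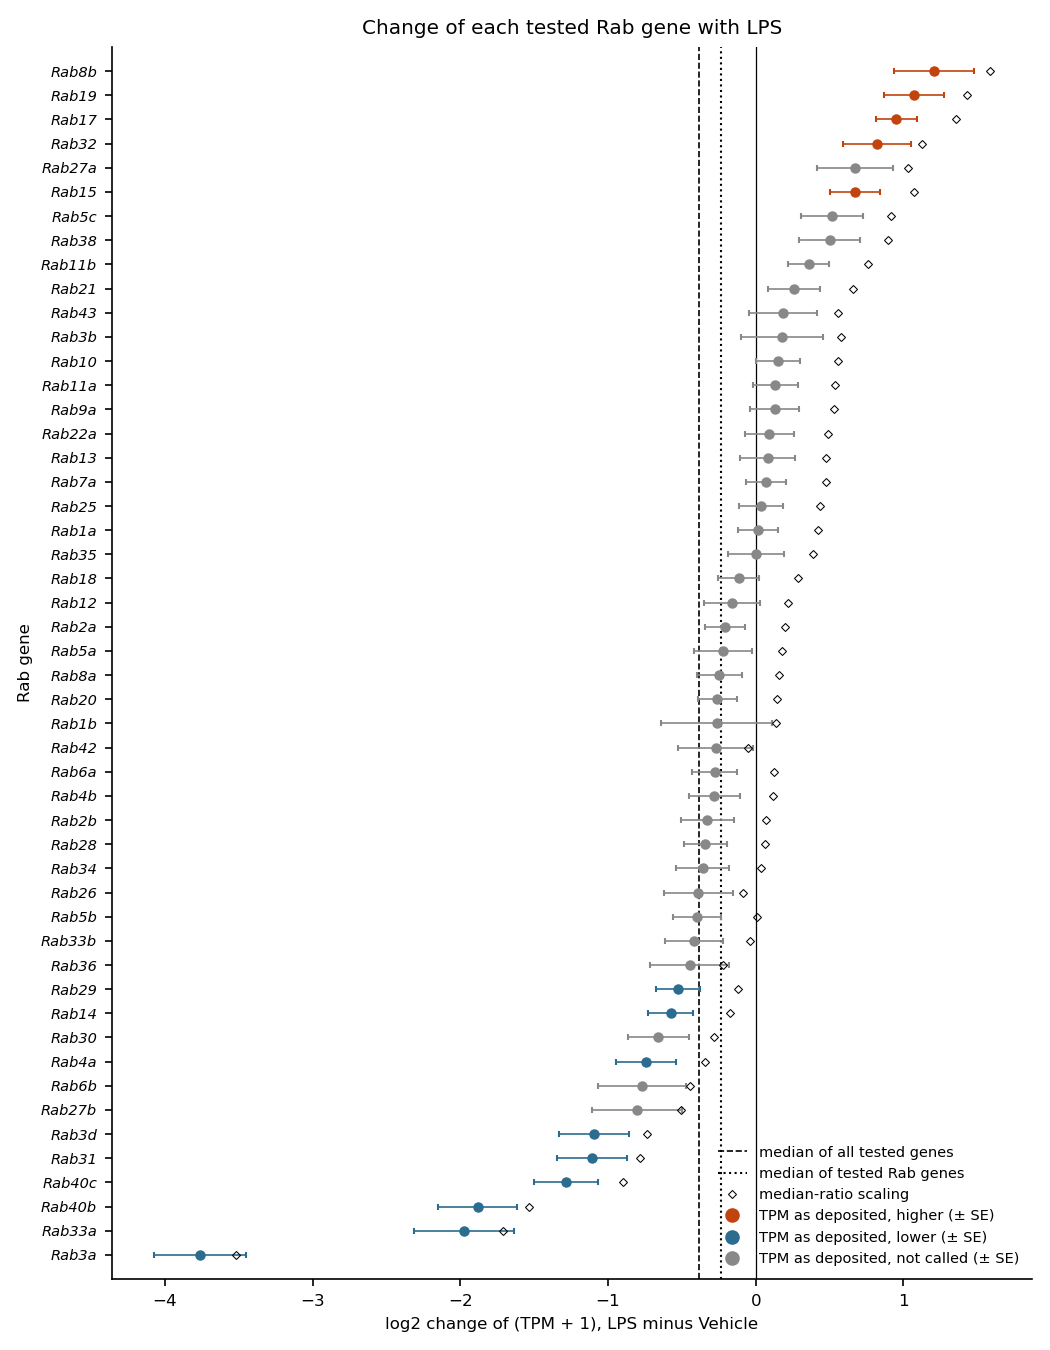
Change of the 50 tested Rab genes, LPS minus Vehicle, in log2(TPM + 1), as the limma estimate with its SE (filled circles, coloured where called) and as the estimate after median-ratio scaling (open diamonds). Rab3a at -3.76 stands apart at the bottom, most members lie within 0.5 of 0, and the scaled estimates lie to the right of those on TPM as deposited.

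Among the genes of recycling and surface delivery, the route that brings channels and transporters back to the plasma membrane, 3 of 14 tested members rose and 2 fell. This count and those of the routes below stand beside 7.17% of all tested genes called higher and 22.2% called lower. With so few genes in a route the counts are a description and were given no test. Rab17 (ENSRNOG00000052979), an epithelial Rab of apical recycling endosomes and transcytosis, had 398.4, 425.8 and 378.6 TPM in the LPS samples, against 217.2, 235.7 and 173 TPM in the Vehicle samples. All 9 LPS libraries, at 366.5 to 439.7 TPM, lay above all 9 Vehicle libraries, at 159.1 to 249.6 TPM. The change was 0.95 in log2 units (SE 0.139) with an adjusted p of 0.00729 by limma, and its mean level in LPS was 1.92 times that in Vehicle.

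Rab8b (ENSRNOG00000018009), a Rab of delivery to the surface and to the cilium, had 12.2, 32.6 and 31.4 TPM in the LPS samples and 8.49, 10.1 and 10.01 TPM in the Vehicle samples. LPS 1 lay just above the highest Vehicle sample and the other LPS samples far above it. The rise was 1.21 (SE 0.27, limma adjusted p = 0.0235), and after median-ratio scaling it missed the threshold (adjusted p = 0.0509) at a change of 1.59. Its close relative Rab8a, with 185, 146.5 and 143 TPM in LPS and 186.3, 181.7 and 191.4 TPM in Vehicle, was not called (-0.25, adjusted p = 0.238). Rab8b therefore made up 6.18%, 18.2% and 18% of the pair's TPM in the LPS samples, against 4.36%, 5.28% and 4.97% in the Vehicle samples.

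Rab15 (ENSRNOG00000007364), which acts in the endocytic recycling compartment, had 64.6, 81.9 and 63.5 TPM in the LPS samples and 38.8, 46.1 and 45.3 TPM in the Vehicle samples. The samples did not overlap, and among libraries the lowest in LPS (53.4 TPM) lay just under the highest in Vehicle (54.3 TPM). Its rise was 0.67 (SE 0.169, limma adjusted p = 0.0304).

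The recycling genes Rab4a and Rab14 were lower. Rab4a (ENSRNOG00000017467), a Rab of rapid recycling from early endosomes, had 101.3, 57.9 and 53.1 TPM in the LPS samples and 120.4, 118.4 and 104.5 TPM in the Vehicle samples. LPS 1 lay close below the lowest Vehicle sample and the other LPS samples well below it. It fell by 0.74 (SE 0.202, limma adjusted p = 0.0367). Without the first library of Vehicle 1, the first of Vehicle 3 or the second of Vehicle 3 its adjusted p was 0.0524, 0.0562 or 0.0528, and after median-ratio scaling its change was -0.34 (adjusted p = 0.171). Rab14 (ENSRNOG00000018901), which works between the Golgi and recycling endosomes, had 89.2, 79.9 and 77.3 TPM in the LPS samples and 123, 117.5 and 126.5 TPM in the Vehicle samples, without overlap. It fell by 0.58 (SE 0.154, limma adjusted p = 0.0359), with adjusted p = 0.0514 without the first library of Vehicle 1 and a change of -0.17 (adjusted p = 0.315) after median-ratio scaling.

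The Rab11 relatives, of which Rab11a and the epithelial Rab25 run the apical recycling endosome, were not called. Rab11b had 375.8, 351 and 389.7 TPM in the LPS samples and 290.1, 307 and 274.8 TPM in the Vehicle samples, with no overlap, a change of 0.36 (SE 0.137) and an adjusted p of 0.0847. Without the replicate block Rab11b was called (adjusted p = 0.0386), as it was after median-ratio scaling (adjusted p = 0.0483). Rab11a had 217.4, 296.8 and 262.8 TPM in LPS against 229.1, 225.5 and 249.03 TPM in Vehicle, and Rab25 had 212.8, 165.5 and 183.4 TPM in LPS against 181.2, 179.1 and 187 TPM in Vehicle. In both genes the groups overlapped, with changes of 0.13 for Rab11a and 0.03 for Rab25. Summed over Rab11a, Rab11b and Rab25, the level was 806, 813.3 and 836 TPM in LPS and 700.3, 711.5 and 710.9 TPM in Vehicle, which is a description and was given no test.

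The remaining members of the recycling route had changes between -0.28 and 0.15 and were not called. Rab10, a Rab of basolateral delivery and of GLUT4 vesicles, averaged 141.3 ± 15.2 TPM in LPS and 126.9 ± 3.92 TPM in Vehicle. Rab35, which acts in fast recycling at the plasma membrane, averaged 19.6 ± 3.55 TPM in LPS and 19.4 ± 1.90 TPM in Vehicle. Rab4b, the relative of Rab4a, averaged 38.8 ± 6.02 TPM in LPS and 47.0 ± 1.81 TPM in Vehicle, and its groups touched, with 45.687 TPM in LPS 1 and 45.653 TPM in Vehicle 3. Rab12, which directs the transferrin receptor to lysosomes, changed by -0.16 and Rab13, a Rab of tight junctions, by 0.08. Summed over the 14 genes the route stood at 1891, 1899 and 1810 TPM in LPS and 1627, 1653 and 1602 TPM in Vehicle. No other route had all its LPS samples above the Vehicle samples. All LPS samples lay below the Vehicle samples for endoplasmic reticulum and Golgi (means 1407 and 1551 TPM) and early endosome (811.3 and 899.3 TPM). The same held for the set of cilium and ubiquitin ligase genes (131.8 and 185.5 TPM). The median change in the recycling route was 0.06, and these sums were given no test. Such sums of TPM as deposited are weighted to abundant genes. In the recycling route Rab17 averaged 401 TPM in LPS and 208.6 TPM in Vehicle, and Rab11b 372.2 and 290.6 TPM. In the early endosome route Rab20 averaged 441 and 532.9 TPM. Rab20 (0.15) and Rab2a (0.20), Rab6a (0.13) and Rab18 (0.29) of the endoplasmic reticulum and Golgi had positive changes after median-ratio scaling.

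Regulated secretion held the largest fall of the family, with 2 of 6 tested members lower and 0 higher. Rab3a (ENSRNOG00000019433), the synaptic vesicle Rab that primes exocytosis, had 2.89, 0.343 and 0.280 TPM in the LPS samples, against 28.6, 28.0 and 18.2 TPM in the Vehicle samples. LPS 2 and LPS 3 were close to 0 and LPS 1 was the highest of the LPS samples, yet the highest LPS library (3.62 TPM) lay far below the lowest Vehicle library (16.8 TPM). The mean in LPS was 4.70% of that in Vehicle. It fell by 3.76 (SE 0.311, limma adjusted p = 0.000986), and by 3.52 and 3.54 after median-ratio scaling (adjusted p = 0.0124) and quantile normalization (adjusted p = 0.0103).

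Rab3d (ENSRNOG00000011582), known from secretory granules of exocrine cells, had 7.51, 4.45 and 4.90 TPM in the LPS samples and 11.9, 11.5 and 15.4 TPM in the Vehicle samples. The groups did not overlap, with LPS 1 the nearest to Vehicle. It fell by 1.10 (SE 0.238, limma adjusted p = 0.0221), or by 0.74 after median-ratio scaling (adjusted p = 0.0581). Rab3b, the most abundant of the 4 relatives, had 111.3, 83.8 and 106.4 TPM in LPS and 70.2, 135.6 and 72.3 TPM in Vehicle and was not called (0.18, SE 0.279). Vehicle 2 was its highest sample and the groups overlapped. Rab3c averaged 0.278 TPM in LPS and 0.823 TPM in Vehicle and was not tested.

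The make-up of the Rab3 relatives thus differed. Rab3a held 2.37%, 0.387% and 0.250% of their summed TPM in the LPS samples, against 25.7%, 15.8% and 17.1% in the Vehicle samples. Rab3b held 93.6% ± 2.10 in LPS and 69.3% ± 7 in Vehicle (SD, n = 3), and for both genes the shares did not overlap. In the pair Rab27a and Rab27b, which tether secretory granules and exosome-bearing endosomes, Rab27a held 82.3%, 78.1% and 89.5% in LPS and 68.1%, 53.1% and 55.0% in Vehicle. Neither gene was called on its own. Rab27a had 6.26, 12.5 and 12.8 TPM in LPS and 5.47, 4.89 and 7.54 TPM in Vehicle (0.67, SE 0.257, limma adjusted p = 0.0844). Rab27b had 1.34, 3.49 and 1.49 TPM in LPS and 2.56, 4.31 and 6.16 TPM in Vehicle (-0.81, SE 0.305, adjusted p = 0.0822). In both, the groups overlapped by a single sample at their edge. Rab26, a Rab of secretory granules, changed by -0.39 without a call, and Rab37 and Rab44 averaged at most 0.082 TPM in either group.

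**Figure D3:**
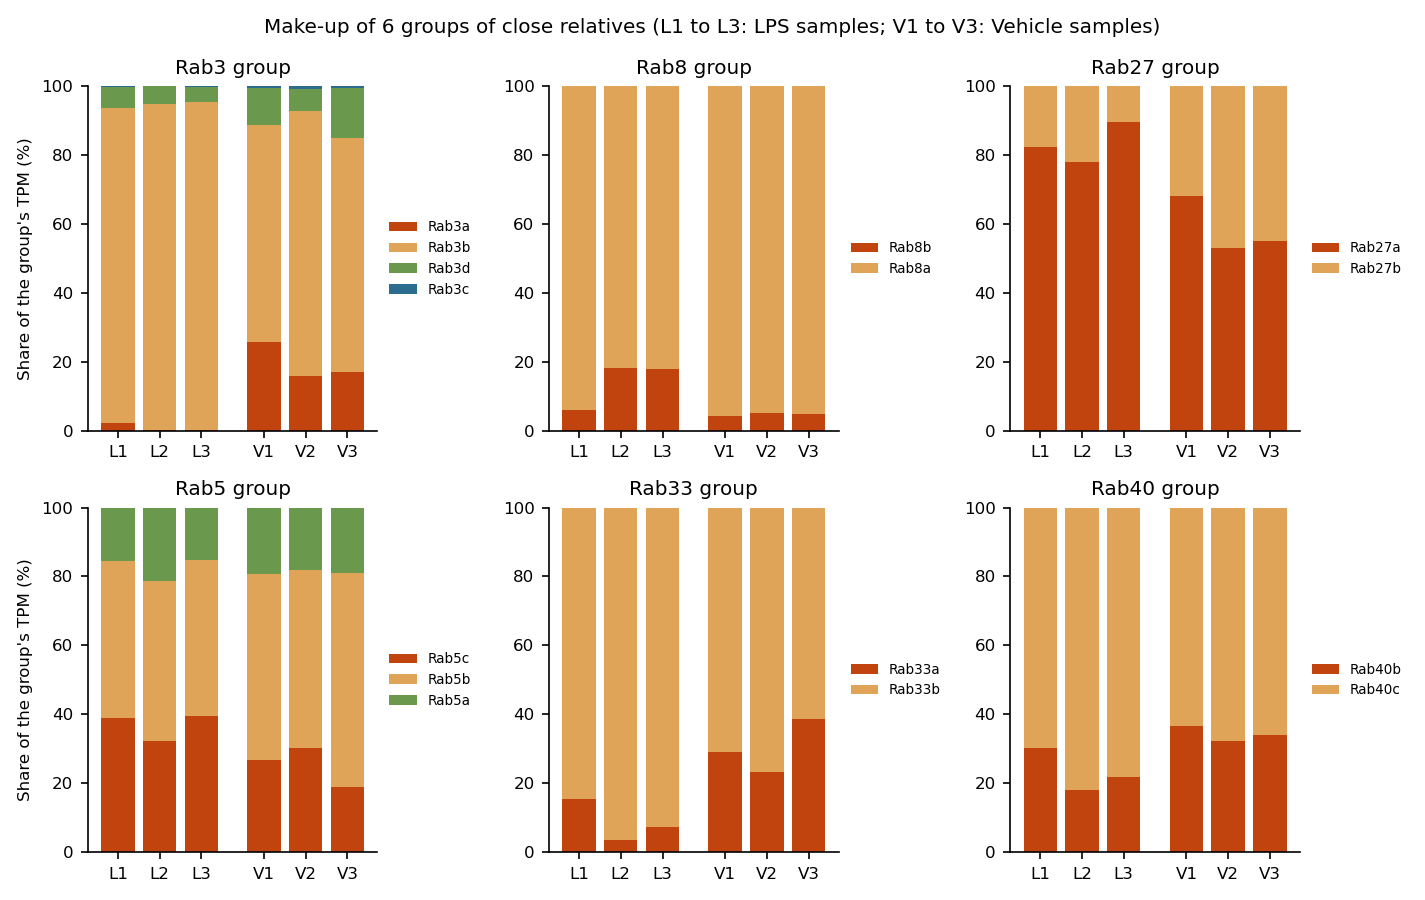
Share of the summed TPM of 6 groups of close relatives held by each member, as stacked bars in percent, in the 3 LPS samples (L1 to L3) and the 3 Vehicle samples (V1 to V3). Rab3a is a thin strip of at most 2.37% in LPS samples and 15.8% to 25.7% in Vehicle samples, and Rab8b reaches 18.2% in LPS 2.

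Early endosome genes had 1 of 7 tested members lower and 0 higher. Rab31 (ENSRNOG00000042189), which moves cargo between the trans-Golgi network and endosomes, had 4.10, 2.03 and 2.71 TPM in the LPS samples and 9.12, 4.5 and 9.38 TPM in the Vehicle samples. Vehicle 2 was the lowest Vehicle sample and lay close above LPS 1. The gene fell by 1.11 (SE 0.235, limma adjusted p = 0.0208), or by 0.78 after median-ratio scaling (adjusted p = 0.0552).

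The Rab5 genes, which control fusion of early endosomes, did not pass the test but differed in direction on TPM as deposited. The directions depended on the scale. After median-ratio scaling Rab5c, Rab5a and Rab5b stood at 0.91, 0.18 and 0.0077, and after quantile normalization at 0.71, 0.045 and -0.28. Rab5c had 73.8, 56.9 and 73.7 TPM in LPS and 52.6, 56.6 and 39.9 TPM in Vehicle (0.51, SE 0.209, limma adjusted p = 0.0962). LPS 2 and Vehicle 2 were nearly level and the other samples lay apart. Rab5b had 85.9, 81.4 and 84.3 TPM in LPS against 106.3, 96.4 and 130.5 TPM in Vehicle, without overlap (-0.40, adjusted p = 0.0987). Rab5a averaged 31.7 ± 5.2 TPM in LPS and 37.1 ± 3.13 TPM in Vehicle, with overlap. Rab5c held 37.0% ± 4.04 of the trio's TPM in LPS and 25.4% ± 5.80 in Vehicle. Its libraries overlapped widely, from 36.8 to 89.7 TPM in LPS and from 24.3 to 77.0 TPM in Vehicle, a spread that these SDs over samples do not show. Rab20, whose levels stand above, was lower in each LPS sample than in any Vehicle sample but was not called (-0.26, adjusted p = 0.16), and it had the opposite sign after median-ratio scaling (0.15). Rab21, which moves integrins through endosomes, had 108.8, 126.4 and 107.2 TPM in LPS and 99.8, 83.0 and 104.6 TPM in Vehicle (0.26, adjusted p = 0.271). Rab22a, a Rab of sorting endosomes, had 64.3, 74.0 and 70.5 TPM in LPS and 64.0, 59.6 and 71.9 TPM in Vehicle, with overlap (0.09).

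Late endosome, lysosome and related organelle genes had 1 of 5 tested members higher and 1 lower. Rab32 (ENSRNOG00000014258), a Rab of lysosome-related organelles and mitochondria, had 4.01, 5.17 and 4.29 TPM in the LPS samples and 2.10, 2.01 and 2.09 TPM in the Vehicle samples. All 9 LPS libraries, from 3.01 TPM, exceeded all 9 Vehicle libraries, up to 2.65 TPM. It rose by 0.82 (SE 0.232, limma adjusted p = 0.04). Leaving out, in turn, the first library of Vehicle 1, the second of Vehicle 2, the second of LPS 1, the third of LPS 2 and the third of LPS 3 gave adjusted p of 0.0502, 0.0536, 0.0557, 0.0530 and 0.0563 in that order. Rab38, its relative in melanosome formation, had 23.0, 31.5 and 37.4 TPM in LPS and 20.5, 22.8 and 19.7 TPM in Vehicle and was not called (0.50, adjusted p = 0.101). LPS 1 lay just above Vehicle 2, the highest Vehicle sample.

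Rab29 (ENSRNOG00000049641), which recruits the kinase LRRK2 to the Golgi and to stressed lysosomes, had 101.4, 74.4 and 78.2 TPM in the LPS samples and 147.7, 104.5 and 112.2 TPM in the Vehicle samples. The groups did not overlap, although LPS 1 lay just under Vehicle 2. It fell by 0.52 (SE 0.15, limma adjusted p = 0.0412). This call was the least firm: without the replicate block the adjusted p was 0.061, after median-ratio scaling the change was -0.12, and without the first library of Vehicle 1, the second of Vehicle 2, the second of Vehicle 3, the third of LPS 2 or the third of LPS 3 the adjusted p was 0.0505, 0.0509, 0.0523, 0.0527 or 0.0588. Rab7a, the main Rab of late endosomes, had 278.1, 301.1 and 318.8 TPM in LPS and 290.4, 287.5 and 275.9 TPM in Vehicle, with overlap (0.07, adjusted p = 0.703). Rab9a, which returns receptors from late endosomes to the Golgi, averaged 75.1 ± 11.5 TPM in LPS and 68.5 ± 1.39 TPM in Vehicle (0.13). Rab7b and Rab9b averaged at most 0.372 TPM in either group.

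Genes of the endoplasmic reticulum and Golgi had 1 of 13 tested members lower and 0 higher. Rab33a (ENSRNOG00000006698), a Golgi and exocytic vesicle Rab best known from neurons, had 2.50, 0.510 and 0.800 TPM in the LPS samples and 6.63, 5.49 and 10.8 TPM in the Vehicle samples. The groups were well separated, with LPS 1 the highest of the LPS samples. It fell by 1.98 (SE 0.338, limma adjusted p = 0.0120). Its relative Rab33b, which takes part in autophagy, had 13.6, 14.2 and 9.95 TPM in LPS and 16.1, 18.1 and 17.2 TPM in Vehicle and was not called (-0.42, adjusted p = 0.137). Rab33a held 8.80% ± 6.12 of the pair's TPM in LPS and 30.4% ± 7.77 in Vehicle.

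The abundant genes of that route were not called. Rab1b ranged from 33.3 to 65.2 TPM in LPS and from 40.2 to 90.5 TPM in Vehicle, with Vehicle 2 the highest. Rab2a had 367.9, 311.8 and 288.2 TPM in LPS and 386.4, 377.7 and 350.4 TPM in Vehicle, with overlap (-0.21, adjusted p = 0.243). Rab6a, which governs traffic out of and back to the Golgi, averaged 136.3 ± 2.16 TPM in LPS and 166.2 ± 17.3 TPM in Vehicle, without overlap (-0.28, adjusted p = 0.184). Rab18 averaged 212.3 ± 4.27 TPM in LPS and 229.7 ± 10.4 TPM in Vehicle, also without overlap (-0.12, adjusted p = 0.52). For Rab1b, Rab2a, Rab6a and Rab18 the sign was positive after median-ratio scaling. Rab6b, the brain-enriched relative of Rab6a, had 3.38, 2.63 and 3.26 TPM in LPS and 3.39, 6.54 and 8.94 TPM in Vehicle (-0.77, SE 0.296, adjusted p = 0.0848), with LPS 1 and Vehicle 1 nearly equal. Rab30, a Golgi Rab, had 14.7, 9.62 and 8.63 TPM in LPS and 18.8, 17.8 and 15.3 TPM in Vehicle, without overlap, and missed the threshold narrowly (-0.66, SE 0.206, adjusted p = 0.0514). Rab2b, Rab34, Rab36 and Rab43 had changes between -0.45 and 0.18, and Rab39a averaged at most 0.12 TPM in either group.

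The last set joins Rabs of the cilium, of ubiquitin ligases and of less known function, with 1 of 5 tested members higher and 2 lower. Rab19 (ENSRNOG00000009030), which helps to clear the apical actin cortex when a cilium forms, had 11.6, 10.9 and 14.3 TPM in the LPS samples and 5.89, 4.38 and 5.66 TPM in the Vehicle samples. All 9 LPS libraries, from 10.2 TPM, lay above all 9 Vehicle libraries, up to 6.89 TPM. It rose by 1.07 (SE 0.203, limma adjusted p = 0.0157), to 2.31 times the Vehicle mean. Its promoter window above holds the interferon-stimulated response element, and whether that motif has a part in the rise was not tested.

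The Rab40 proteins differ from other Rabs in carrying a SOCS box, through which they join a Cullin-5 ubiquitin ligase. Rab40b (ENSRNOG00000036661) had 7.37, 2.60 and 3.07 TPM in the LPS samples and 18.01, 15.3 and 18.8 TPM in the Vehicle samples. Rab40c (ENSRNOG00000020067) had 17.0, 11.6 and 11.1 TPM in the LPS samples and 31.1, 31.9 and 36.5 TPM in the Vehicle samples. In both genes every LPS library lay below every Vehicle library, and LPS 1 was the highest LPS sample. Rab40b fell by 1.88 (SE 0.27, limma adjusted p = 0.00692) and Rab40c by 1.29 (SE 0.217, adjusted p = 0.0115), and both calls held after median-ratio scaling, at -1.54 and -0.90. Their summed level was 24.3, 14.2 and 14.1 TPM in LPS and 49.1, 47.2 and 55.3 TPM in Vehicle. Rab28, a Rab of the ciliary base, had 111.5, 97.3 and 91.8 TPM in LPS and 135.1, 125.8 and 119.2 TPM in Vehicle, without overlap, and was not called (-0.34, adjusted p = 0.114). Rab42 changed by -0.27 with overlap, and Rab23, a ciliary Rab of Hedgehog signalling, averaged 0.448 TPM in LPS and 1.10 TPM in Vehicle and was not tested.

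**Figure D4:**
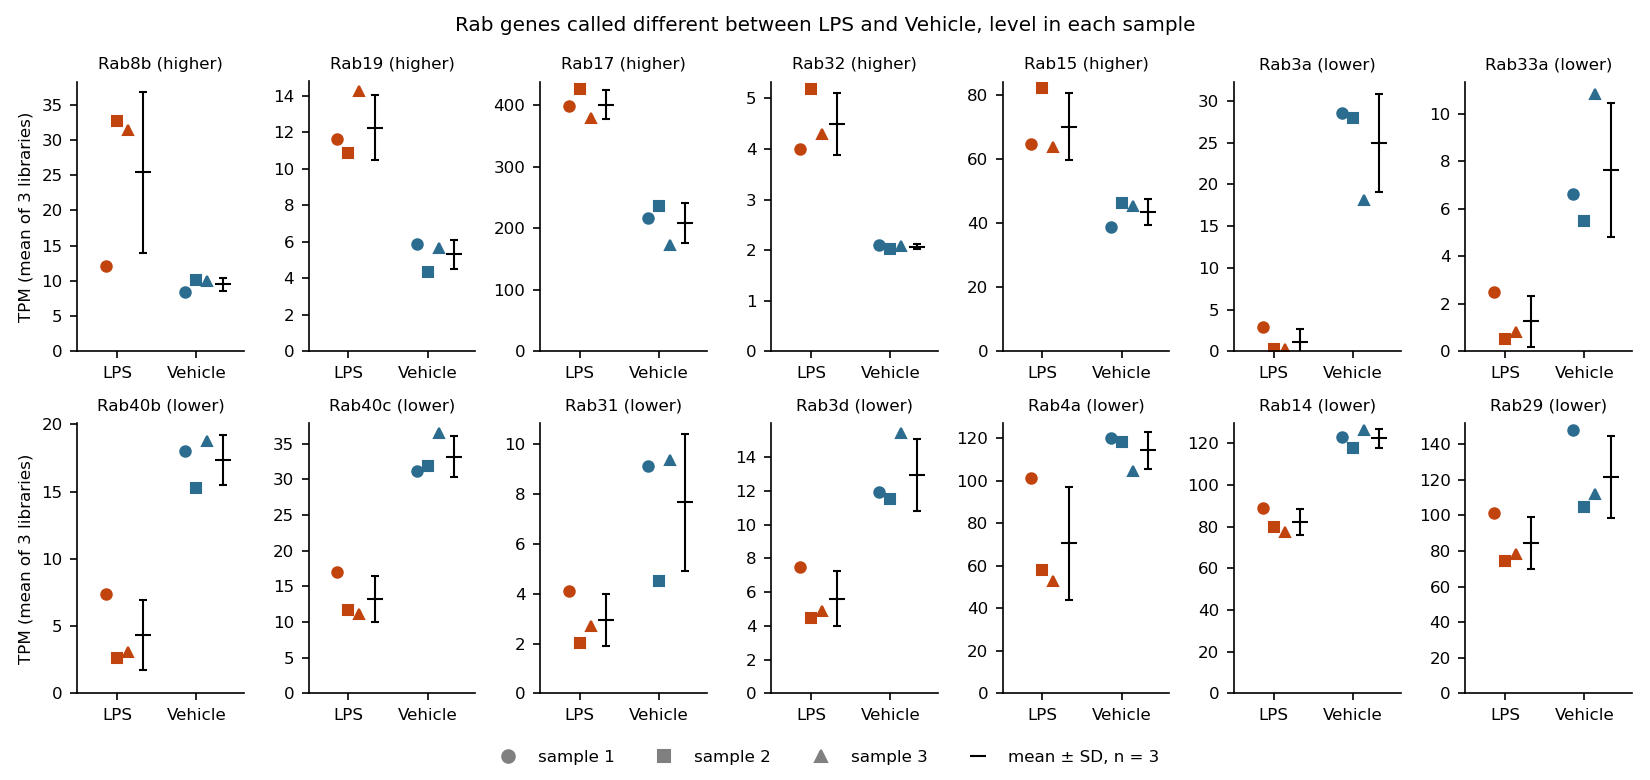
Level in TPM of the 14 called Rab genes in the 3 LPS samples (orange) and the 3 Vehicle samples (blue), each point the mean of 3 libraries, with the mean and SD of each group (the bar of Rab3a in LPS is cut at 0). In Rab8b and Rab4a sample LPS 1 (circle), at 12.2 and 101.3 TPM, lies nearer to the Vehicle samples than LPS 2 and LPS 3 do.

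Calls were made at every level of expression. Of the 14 called members, 4 averaged 100 TPM or more in Vehicle (of 17 tested at that level), 5 lay between 10 and 100 TPM (of 22) and 5 below 10 TPM (of 11). Over all levels 29.4% of all tested genes were called. Their share at each level was not computed, so these counts show nothing particular to the Rab genes. Among the 36 uncalled members, 22 had a change of less than 0.3 in size. Adding 1 to TPM before the log shrinks the change of low genes, among them Rab3a, Rab32 and Rab33a. The authors' estimation of TPM can share reads between close relatives, so the split within the pairs and trios above is uncertain.

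The proteins that run the Rab cycle were described from lists of known genes. Of 12 tested genes of prenylation and GDI, 0 rose and 1 fell, with a median of -0.32. The gene that fell was Zmpste24, a protease of prenylated proteins that acts on lamin A rather than on Rabs, at 57.8 ± 0.701 TPM in LPS and 83.6 ± 7.45 TPM in Vehicle (-0.53, limma adjusted p = 0.0470). That call was lost after median-ratio scaling, at -0.13 (adjusted p = 0.489), and after quantile normalization, at -0.37 (adjusted p = 0.0947). Rabggtb, the catalytic subunit of the Rab geranylgeranyl transferase, changed by -0.61 (adjusted p = 0.0603) and the chaperone gene Rabif by -0.90 (adjusted p = 0.0731), neither called. Of 47 GEF genes 2 rose and 11 fell (median -0.47), and of 36 GAP genes 1 rose and 11 fell (median -0.66). The medians lie near or below that of all tested genes (-0.38), and the shares called lower can be read against the 22.2% given above. After median-ratio scaling 4 GEF genes were higher and 2 lower (median -0.13) and 1 GAP gene was higher and 2 lower (median -0.32), beside a median of -0.02 over all genes.

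Single regulators were called in both directions. Dennd2d, of a GEF family that acts on Rab9, had 92.7, 114.1 and 131.6 TPM in LPS and 45.3, 39.5 and 47.0 TPM in Vehicle and rose by 1.33 (SE 0.177, limma adjusted p = 0.00537). Sh3bp5, a GEF for Rab11, had 21.0, 12.9 and 5.16 TPM in LPS and 63.0, 57.4 and 85.5 TPM in Vehicle and fell by 2.43 (adjusted p = 0.0111). In both genes the groups did not overlap. Among the GAPs with the TBC domain, Grtp1 rose by 0.96 (SE 0.145, adjusted p = 0.00801), with 203.8, 186.5 and 207.5 TPM in LPS and 107, 99.2 and 100.6 TPM in Vehicle. Tbc1d7, a subunit of the TSC complex, fell by 1.51 (adjusted p = 0.0072) and Tbc1d31, a centrosome protein, by 1.19 (adjusted p = 0.0191), the last not called after quantile normalization (-0.83, adjusted p = 0.0543).

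Effectors are the proteins that bind the active Rab. Of 57 tested effector genes 26 fell and 2 rose, with a median of -0.69, beside 22.2% lower, 7.17% higher and a median of -0.38 over all tested genes. Most of these falls were not called on another scale: after median-ratio scaling 3 effector genes were lower and 3 higher (median -0.33), after quantile normalization 4 and 4, and after TMM scaling 3 and 2. Calls were lost among all tested genes too, of which 3.73%, 4.5% and 3.92% were lower and 6.69%, 6.43% and 6.75% higher after these scalings. The median of all genes was -0.02 after median-ratio scaling. By that scaling 28 of the 57 effector genes had an unadjusted limma p under 0.05, beside 2328 higher and 2154 lower of 12393 genes. Rilpl1, an effector of Rab8 and Rab10 phosphorylated by LRRK2, averaged 5.45 ± 2.79 TPM in LPS and 21.0 ± 4.26 TPM in Vehicle and fell by 1.84 (limma adjusted p = 0.0133). Kif20a, a mitotic kinesin that binds Rab6, averaged 4.38 ± 2.99 TPM in LPS and 15.1 ± 1.16 TPM in Vehicle and fell by 1.74 (adjusted p = 0.0107). Appl2, a Rab5 effector on early signalling endosomes, averaged 5.97 ± 3.51 TPM in LPS and 16.1 ± 1.86 TPM in Vehicle, a fall of 1.41 (adjusted p = 0.0166) that was not called after median-ratio scaling (-1.05, adjusted p = 0.0564).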

How the data were processed

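RNA of microdissected cortical collecting ducts was measured in 6 numbered samples (3 LPS, 3 Vehicle), with 3 libraries of each. The deposited values are TPM per gene and library, made by the authors with STAR 2.7.9a and RSEM 1.3.3 on Rnor_6.0, per the submitters' processing notes, and the annotation release is not given in the sources used here. Columns starting with L were read as LPS and those with N as normal saline, and 0 columns were unmapped and 0 libraries identical.

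Each sample was represented by the mean of log2(TPM + 1) in its 3 libraries. The 12393 of 32883 genes that averaged 1 TPM or more over all libraries were compared by limma 3.58.1 in R 4.3.3, with a variance trend, a two-sided moderated test and Benjamini-Hochberg adjustment over all of them. Residual degrees of freedom were 2 and those of the prior 4.97. The sample number was a block because the series' design text calls the samples paired. What a pair shared is not stated, and deviations of same-numbered samples correlated weakly across genes (r = 0.062, -0.018 and 0.069). The code was checked on data with known answers.

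The text names every called member, a set of members of the main routes, the 8 most abundant in Vehicle, the 5 uncalled members with the largest change and, of each list of other traffic genes, the 3 with the smallest p, except for a few results that are not reported here. Any further member was named after its values were known, and marker lists are given by their sums. The members, the lists and the grouping by route were chosen with earlier results of these data known. As alternatives the block was dropped, the 18 libraries were fitted singly with a correlation estimated within samples, and other summaries over libraries, pseudocounts, filters, scalings (median ratio, quantile, and trimmed mean of M values, TMM) and variance models were tried. Each sample number and each library was also left out in turn. Promoter windows came from RefSeq on GRCr8. No coordinates of the expression rows and no protein sequences were used here.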

Additional observations from a re-analysis of the deposited data

How the results depend on the processing

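On TPM as deposited 5 members were higher and 9 lower with LPS, of all genes 889 and 2757, and 36 alternatives were run. In the fit without the replicate block the counts were 6 and 8 (912 and 3624 of all genes), with Rab11b gained and Rab29 lost, and the block changed no other call of a member. Of 502 values of the 14 called members under alternatives, 403 kept the call, 99 lost it and 0 reversed; of 1291 values of uncalled members 33 were called and 58 had the other sign. Leaving out a sample number or a library gave 0 to 6 members higher and 0 to 11 lower (0 to 1004 and 0 to 3595 of all genes), the lowest without replicate 3; the count of all genes lower was 1639 without the first library of Vehicle 1, 1699 and 1697 without the first and second of Vehicle 3 and 1803 without the third of LPS 2. With all 18 libraries and an estimated correlation 20 members and 5295 genes were lower. By limma with the median of the libraries 0 members and 0 genes were called in either direction (6 and 12 members at an unadjusted p under 0.05, 1019 and 4167 genes), and with no filter 0 members (6 and 13 unadjusted) and 18 and 2 genes. Lower members numbered 4 after median-ratio, quantile and TMM scaling (462, 558 and 486 genes). The fit without a variance trend called 5 members higher and 6 lower (806 and 2375 genes). In it Rab4a, Rab14 and Rab29 lost their calls, at limma adjusted p of 0.0573, 0.0602 and 0.0691. Among settings added after the data were seen, the fit without the 3 libraries least like the rest of their sample called 0 and 1 members (228 and 72 genes), and the fit with no replicate block and without LPS 1 called 9 and 16 (1357 and 5750). The cause of these shifts was not tested.

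Sign changes were all in uncalled members. After median-ratio scaling Rab12 stood at 0.22, Rab18 at 0.29, Rab1b at 0.14, Rab20 at 0.15, Rab28 at 0.064, Rab2a at 0.20, Rab2b at 0.070, Rab34 at 0.038, Rab4b at 0.12, Rab5a at 0.18, Rab5b at 0.0077, Rab6a at 0.13 and Rab8a at 0.16. After TMM scaling Rab12 stood at 0.20, Rab18 at 0.27, Rab1b at 0.11, Rab20 at 0.12, Rab28 at 0.041, Rab2a at 0.17, Rab2b at 0.047, Rab34 at 0.015, Rab4b at 0.095, Rab5a at 0.15, Rab6a at 0.10 and Rab8a at 0.14. After quantile normalization Rab12 stood at 0.19, Rab1a at -0.068, Rab5a at 0.045 and Rab7a at -0.014. Rab25 stood at -0.037 with the median of the libraries, at -0.043 without the 3 libraries and at -0.063 without the block and LPS 1. Rab35 stood at -0.0085, -0.00011 and -0.031 with the median of the libraries, with TPM averaged before the log and without the block and LPS 1. Leaving out samples or libraries gave -0.080 to 0.12 for Rab35, -0.066 to 0.11 for Rab25, -0.10 to 0.085 for Rab1a, -0.76 to 0.33 for Rab1b, -0.071 to 0.61 for Rab3b, -0.052 to 0.18 for Rab13 and -0.013 to 0.15 for Rab22a. The depth behind TPM is unknown, so no counting interval can be given, and members near 1 TPM are the least precise.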

Other observations

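Fusion proteins and Arf family GTPases of the same ducts were read from lists of known genes, by the same limma fit. Of 46 tested SNARE and fusion genes 2 rose and 12 fell, with a median of -0.46, and after median-ratio scaling 4 were higher and 2 lower, with a median of -0.063. This count and those of the exocyst and Arf genes below stand beside 7.17% of all tested genes higher and 22.2% lower, with a median of -0.38. After median-ratio scaling the shares of all tested genes were 6.69% and 3.73%, with a median of -0.02. The counts are a description and were given no test. Stx11, a SNARE best known from the granule secretion of lymphocytes and platelets, had 13.0, 15.6 and 13.1 TPM in the LPS samples, against 0.973, 0.853 and 1.07 TPM in the Vehicle samples. The rise was 2.94 in log2 units (SE 0.222) with an adjusted p of 0.00067 by limma, far beyond the spread within groups. Macrophage and neutrophil markers were also higher in LPS, as given above, and their part in this rise was not tested. Ykt6, a SNARE of the Golgi and of autophagosomes, had 51.3, 39.4 and 47.3 TPM in LPS and 124.2, 90.2 and 142.1 TPM in Vehicle and fell by 1.29 (adjusted p = 0.00524). Stx2, a plasma membrane syntaxin, averaged 4.92 ± 3.34 TPM in LPS and 14.9 ± 1.61 TPM in Vehicle (SD, n = 3) and fell by 1.56 (adjusted p = 0.0137). Of 9 exocyst genes, which encode the tether of surface delivery, 0 rose and 2 fell: Exoc7 by 0.71 (adjusted p = 0.0328) and Exoc2 by 0.74 (adjusted p = 0.0385), while Exoc3 stood at -0.58 (adjusted p = 0.0525). After median-ratio scaling neither exocyst gene was called, at -0.31 and -0.35.

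Of 20 tested Arf family genes, the GTPases of coat formation, 1 rose and 2 fell. Arl4d, an Arf-like gene, had 12.4, 9.23 and 23.2 TPM in LPS and 95.6, 38.9 and 218.7 TPM in Vehicle and fell by 2.67 (adjusted p = 0.00165), without overlap although the Vehicle samples were widely spread. Arl8a, which moves lysosomes along microtubules, rose by 0.63 (adjusted p = 0.0466) and Trim23, a ubiquitin ligase with an Arf domain, fell by 1.00 (adjusted p = 0.0178). Trim23 was not called after median-ratio scaling (-0.64, adjusted p = 0.0577) or quantile normalization (-0.61, adjusted p = 0.0602), nor Arl8a after quantile normalization (0.85, adjusted p = 0.0573).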
